A study of Mus musculus with 13 samples.

Results

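The transcriptome of mouse embryonic stem (ES) cells was compared after 48 h with or without PhenDC3, and 14020 of the 24079 genes in the count table, those with at least 10 counts in 3 or more samples, were tested. RNA-seq made up 6 of the 13 samples of the series. The control group was 3 samples of CGR8 ES cells given 0.5% DMSO, and the PhenDC3 group was 3 samples of the same cells given 10 µM PhenDC3 in 0.5% DMSO, so that both groups carried the solvent. CGR8 is a single feeder-independent ES line, and these asynchronous cultures were kept undifferentiated on gelatin in serum with the cytokine LIF.

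PhenDC3 is a bisquinolinium compound that binds G-quadruplexes (G4), 4-stranded structures that guanine-rich DNA or RNA can fold into. Sequences able to fold this way are common near the transcription start sites of vertebrate genes and at many replication origins. ES cells in serum and LIF move between a naive state, held by factors such as Nanog, Klf4, Tbx3 and Tfcp2l1 under LIF-STAT3 signalling, and a formative state reached through FGF-ERK signalling and marked by Lef1, Pou3f1, Fgf5 and the de novo DNA methyltransferases. A small share of such cells passes through a state resembling the 2-cell embryo, with expression of the Zscan4 cluster.

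The 6 libraries held between 22232014 and 29486502 counts, and replicates of a group differed by more than sampling noise (chi-square per degree of freedom from 19.3 to 64.3). The sources used here do not say whether the 3 samples of a group came from separate cultures, so the p-values measure the spread between these samples, which may be technical. The first principal component, with 68.6% of the variance of log2 CPM (normalised counts per 1e6 counts of a library), separated the groups without overlap. The ribosomal precursor Rn45s took 2.55 to 5.70% of the counts in controls and 0.172 to 1.43% with PhenDC3. The entry for Lars2, the mitochondrial leucyl-tRNA synthetase, took 0.750 to 0.996% of the counts in controls and 0.114 to 0.403% with PhenDC3. The counts do not show which sequences within the Lars2 entry the reads came from, and the part of these 2 entries in the other results was examined only through the choice of scaling, given beside the counts of calls. All 8 ES cell markers on the list were expressed, with summed levels of 7246 to 8087 CPM in controls and 7996 to 9339 CPM with PhenDC3. Of the 8, 2 rose and 3 fell. Dppa5a alone gave 2016 to 2604 CPM of the sum in controls and 2733 to 4064 CPM with PhenDC3. The 7 fibroblast markers summed to 3.22 to 6.83 CPM over the 6 samples, and 2 of them, Dcn and Lum, had no count in any sample.

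The response was broad and close to even in direction. PhenDC3 raised 2519 genes and lowered 2615 genes (edgeR quasi-likelihood test with Benjamini-Hochberg adjustment over all genes tested, adjusted p at most 0.05), which is 18.0% and 18.7% of the genes tested and 36.6% in all. A change of at least 1.5-fold was called for 3621 genes, 25.8% of those tested, with 1933 higher and 1688 lower. At least 2-fold changes numbered 1101 higher and 818 lower, at least 4-fold changes 275 and 209, and at least 8-fold changes 62 and 43. The median log2 fold change over all genes tested was 0.01. The CPM values of the groups did not overlap for 7078 genes, 50.5% of those tested. Scaling by library size alone moved the median of all genes to 0.16 on the log2 scale and the split to 3587 higher and 1692 lower. With library sizes counted without Rn45s and Lars2, a choice made after seeing the data, the split was 3086 higher and 2062 lower, with a median of 0.10. Leaving out PhenDC3 replicate 1 brought the calls to 1708 higher and 1620 lower, and no gene called in both fits changed direction. The filter was passed through PhenDC3 samples alone by 191 genes, with no control at 10 counts or more, and through control samples alone by 93 genes.

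**Figure D1:**
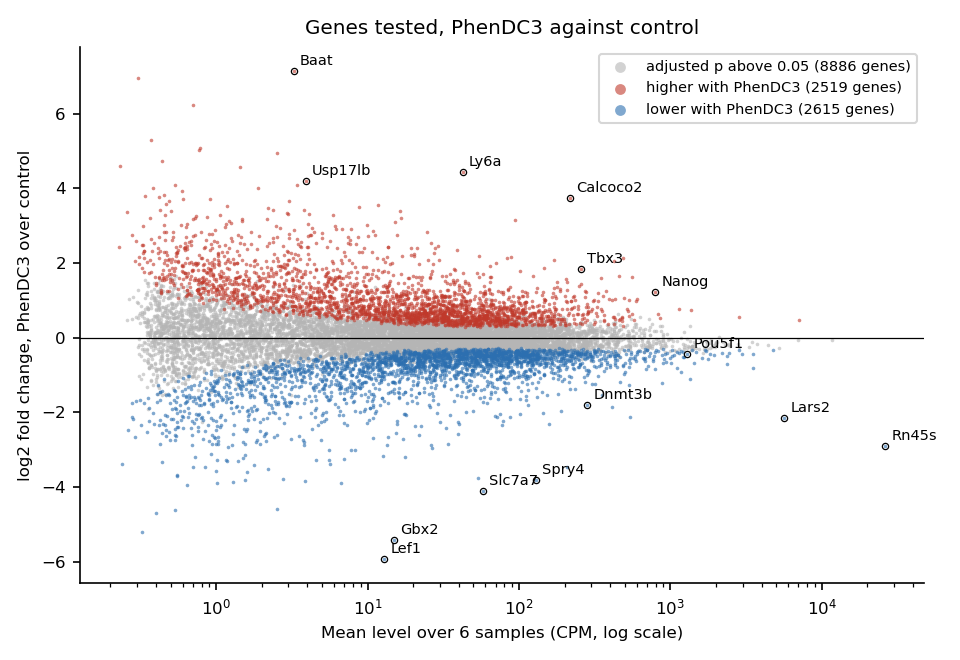
Each point is one of the 14020 genes tested, with its mean level over the 6 samples in CPM on a log axis and its log2 fold change of PhenDC3 over control; red marks the 2519 genes called higher and blue the 2615 called lower. Rises and falls were found at every level, and Rn45s and Lars2 stand at the far right below 0.

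Among the genes with the largest rises, those at substantial levels were Calcoco2 and Ly6a. Calcoco2, which encodes the autophagy receptor NDP52, stood at 31.3, 27.04 and 31.7 CPM in the control samples and 456, 414 and 333 CPM in the PhenDC3 samples. No control sample came near any treated sample for this gene (log2 fold change 3.74 ± 0.16, adjusted p = 1.0e-05). Ly6a, the gene of the surface antigen Sca-1, stood at 4.34, 3.65 and 3.2 CPM in the control samples and 74.3, 90.05 and 79.6 CPM in the PhenDC3 samples. The groups were far apart (log2 fold change 4.44 ± 0.16, adjusted p = 4.9e-06), and this was the smallest adjusted p among the genes named here. Several other large rises started from nearly silent genes. Baat, the enzyme that joins bile acids to glycine or taurine, had 3 counts over the 3 control samples against 506 over the PhenDC3 samples, a 153-fold ratio of normalised counts with a 95% counting interval of 52.0 to 743. Bhmt, which remethylates homocysteine with betaine, stood at 0.0723, 0.182 and 0.216 CPM in the control samples and 6.28, 5.897 and 2.43 CPM in the PhenDC3 samples (log2 fold change 4.95 ± 0.52, adjusted p = 2.3e-04). Fbln5, an elastic fibre protein, rose from 8 to 219 counts per group, a ratio of 24.8 with an interval of 12.4 to 58.1. These intervals cover counting error only. Baat, Bhmt and Fbln5 passed the count filter through PhenDC3 samples alone, so that a difference followed from the filter.

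Pkd2l1, a polycystin-family cation channel, and Ebf4, an EBF transcription factor, completed the rises outside multicopy families. Pkd2l1 moved from 0.362, 0.182 and 0.0865 to 4.47, 3.76 and 2.47 CPM and Ebf4 from 0.108, 0.365 and 0.0865 to 1.63, 3.39 and 1.45 CPM. In both genes every PhenDC3 sample lay above every control (4.01 ± 0.44 and 3.53 ± 0.57 on the log2 scale, adjusted p = 2.7e-04 and 0.0018). Ebf4 passed the count filter through PhenDC3 samples alone, so that a difference followed from the filter. The other 5 of the 12 largest rises, Usp17lb, Gm12794, Gm5662, Gm2022 and Gm8300, belong to multicopy families whose members share near-identical sequence, so that the split of reads between copies is uncertain. Gm8300, Gm2022 and Gm5662 lie within 1 stretch of chromosome 12 in GRCm38.p6, from Gm8300 at position 87514316 to the end of Gm5662 at 88274497.

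The largest fall was that of Lef1, the nuclear partner of beta-catenin in Wnt signalling. Lef1 stood at 21.1, 21.2 and 33.5 CPM in the control samples and 0.555, 0.335 and 0.327 CPM in the PhenDC3 samples (log2 fold change -5.93 ± 0.30, adjusted p = 2.5e-05). Gbx2, a homeobox gene that is a STAT3 target in ES cells, stood at 26.1, 34.1 and 27.4 CPM in the control samples and 0.867, 0.335 and 0.799 CPM in the PhenDC3 samples (log2 fold change -5.42 ± 0.28, adjusted p = 2.5e-05). Both genes were thus expressed in every control sample and under 1 CPM in every PhenDC3 sample. Spry4, an inhibitor of the ERK cascade that is itself induced by it, fell from 278, 202 and 246 to 17.3, 11.1 and 22.7 CPM (log2 fold change -3.83 ± 0.25, adjusted p = 5.2e-05). Slc7a7, a light chain of the cationic amino acid exchanger, fell from 118, 112 and 96.5 to 5.72, 4.22 and 8.75 CPM (log2 fold change -4.12 ± 0.24, adjusted p = 4.8e-05). Myrf, a membrane-anchored transcription factor known from myelin, fell from 87.5, 94.5 and 116 to 7.701, 3.89 and 10.2 CPM (log2 fold change -3.76 ± 0.30, adjusted p = 8.1e-05). These 3 genes were the most highly expressed of the largest falls. Pou3f1, the POU factor Oct6, fell from 7.45, 14.4 and 15.5 to 0.694, 0.586 and 1.198 CPM (-3.90 ± 0.36 on the log2 scale).

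The remaining large falls concerned genes of low level. Nlrc4, an inflammasome component, went from 7.17 ± 2.097 to 0.498 ± 0.106 CPM and Enpp2, which encodes autotaxin, from 5.16 ± 1.03 to 0.362 ± 0.215 CPM (mean ± SD, n = 3 per group). Zbp1, a sensor of Z-form nucleic acids, went from 2.87 ± 0.846 to 0.203 ± 0.0576 CPM. Vrtn, a gene linked to vertebral number, and Pdyn, the precursor of dynorphins, ended below 0.42 CPM in each PhenDC3 sample. Zbp1 and Pdyn passed the count filter through control samples alone, so that a difference followed from the filter. Of the falls shown, Vrtn also had the widest ratio between controls, at 2.75, 3.37 and 8.52 CPM.

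**Figure D2:**
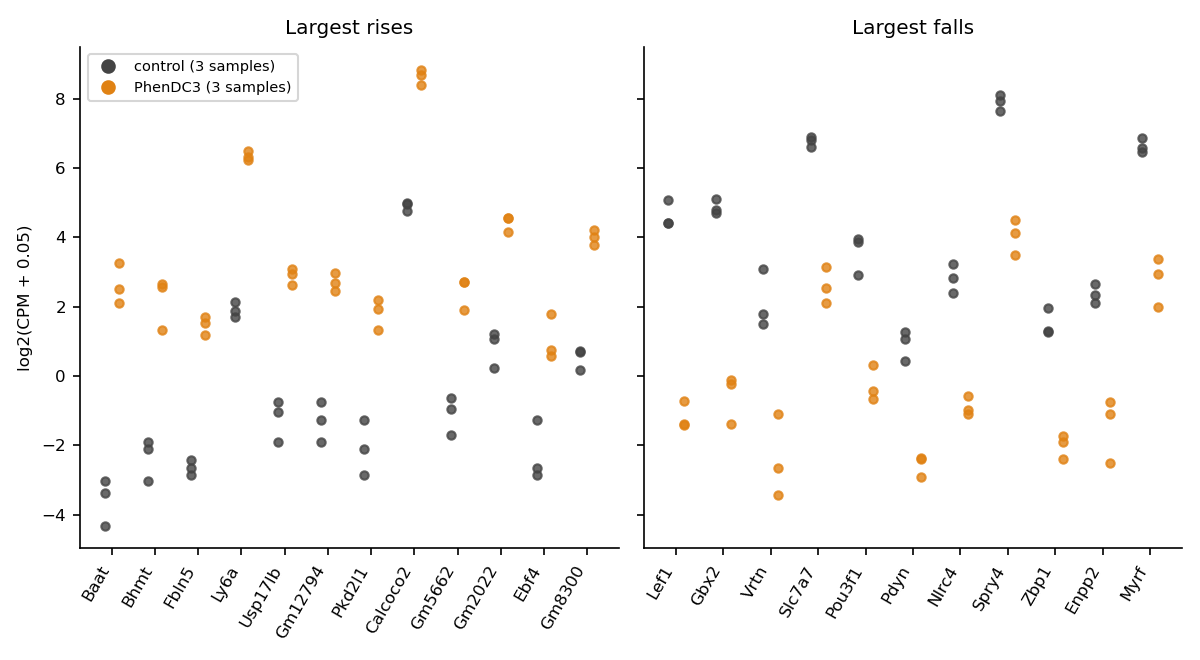
Levels of genes with the largest rises and falls, as log2(CPM + 0.05) on the y axis, 1 point per sample (grey, control; orange, PhenDC3). In each gene shown the 3 control samples and the 3 PhenDC3 samples did not overlap, which was a condition of the choice.

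Among abundant genes, the largest read numbers with a rise of at least 1.5-fold belonged to Slc2a3, Eif2s2, Trip12, Nanog and Sparc. Slc2a3, the neuronal-type glucose transporter GLUT3, stood at 1182, 909 and 971 CPM in the control samples and 1643, 1603 and 1843 CPM in the PhenDC3 samples (log2 fold change 0.73 ± 0.13, adjusted p = 0.0027). Eif2s2, the beta subunit of initiation factor eIF2, rose from 917, 786 and 809.5 to 1387, 1539 and 1373 CPM (log2 fold change 0.77 ± 0.11, adjusted p = 0.001). Sparc, a matrix glycoprotein, rose from 464, 377 and 359 to 774, 760.1 and 899.8 CPM (log2 fold change 1.02 ± 0.13, adjusted p = 6.8e-04), and Trip12, a ubiquitin ligase, rose by 0.62 ± 0.15 on the log2 scale. Among falls, the most abundant were Rn45s, Lars2, Pkm, Actb and Rpl8. Rn45s ranged widely within each group, from 60770, 25880 and 52760 to 3294, 1603 and 13770 CPM (log2 fold change -2.90 ± 0.74, adjusted p = 0.016). It lost its call when PhenDC3 replicate 1 was left out. The Lars2 entry fell from 9199, 7604 and 10810 to 1087, 1268 and 3873 CPM (log2 fold change -2.15 ± 0.46, adjusted p = 0.0077), a call that was lost without the count filter, and PhenDC3 replicate 3 had the highest level of both entries within its group. Pkm, the pyruvate kinase of glycolysis, fell from 4504, 3596 and 5312 to 2804, 2179 and 2660 CPM, and Actb, beta-actin, from 2524, 3046 and 3283 to 1834, 1865 and 1682 CPM.

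Naive pluripotency genes were mostly higher and general and formative pluripotency genes mostly lower. Of the 16 naive genes, all tested, 10 rose and 1 fell, with a median log2 fold change of 0.68 against 0.01 for all genes tested. Nanog, a homeodomain factor of the naive network, stood at 491, 474 and 466 CPM in the control samples and 1183, 1046 and 1109 CPM in the PhenDC3 samples, so that every treated sample exceeded every control by more than a doubling (log2 fold change 1.22 ± 0.10, adjusted p = 1.0e-04). Tbx3, a T-box factor, rose from 116, 131 and 92.1 to 403, 443 and 354 CPM (log2 fold change 1.82 ± 0.15, adjusted p = 9.8e-05). Tfcp2l1, a grainyhead-family factor downstream of STAT3, rose from 245, 212 and 360.1 to 807, 687 and 1020 CPM (log2 fold change 1.62 ± 0.22, adjusted p = 7.4e-04). Dppa3, also called Stella, rose from 20.8, 21.9 and 28.02 to 60.01, 68.2 and 65.97 CPM (log2 fold change 1.46 ± 0.14, adjusted p = 1.5e-04). The single fall on this list was that of Nr0b1, the orphan receptor Dax1, from 65.4, 95.9 and 93.7 to 34, 28.3 and 35.98 CPM (log2 fold change -1.38 ± 0.17, adjusted p = 4.8e-04).

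The general pluripotency list gave 10 falls and no rise among 13 genes, with a median log2 fold change of -0.58. Pou5f1, which encodes Oct4, stood at 1435, 1621 and 1403 CPM in the control samples and 1097, 1131 and 1045 CPM in the PhenDC3 samples (log2 fold change -0.45 ± 0.11, adjusted p = 0.011). This call was lost with scaling by library size alone and without PhenDC3 replicate 1. Utf1, a chromatin-associated factor of undifferentiated cells, fell from 158, 257 and 282 to 53.8, 52.2 and 65.9 CPM (log2 fold change -2.02 ± 0.21, adjusted p = 2.3e-04). Dnmt3l, the cofactor of de novo DNA methylation, fell from 519.8, 483 and 575 to 175, 148 and 217 CPM, and Lin28a, the inhibitor of let-7 processing, from 459.9, 375 and 514 to 197, 128 and 242 CPM (adjusted p = 1.9e-04 and 0.0028). Sox2, whose product acts with Oct4, stood at 601, 637 and 635 CPM in controls and 705, 703 and 774 CPM with PhenDC3 and did not pass the test (adjusted p = 0.12).

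Of the 13 formative or primed genes tested, 9 fell and none rose, with a median log2 fold change of -2.06. Besides Lef1 and Pou3f1, Sox3, a SoxB1 factor of early neural progenitors, fell from 1.34, 1.55 and 3.42 to 0.0694, 0.209 and 0.363 CPM (log2 fold change -3.27 ± 0.57, adjusted p = 0.0026). Fgf15, Tcf15, Etv4, Fgf5, Dnmt3b and Dnmt3a made up the other falls. The de novo methyltransferase gene Dnmt3b went from 359, 364 and 588 to 131, 99.4 and 146 CPM, and its control values also differed among themselves by more than the PhenDC3 values. On the list of DNA methylation enzymes, 6 of 18 genes fell and 6 rose. The falls were led by Dnmt3b, Dnmt3a and Dnmt3l (-1.80, -1.57 and -1.55 on the log2 scale), and the rises by Gadd45b, Mbd2 and Tet3 (1.16, 0.98 and 0.89), Tet3 being one of the enzymes that oxidise methylcytosine.

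Genes that ERK signalling induces mostly fell, while an FGF ligand and its receptor on the same list rose. Among 21 genes of the FGF-ERK list that were tested, 12 fell and 2 rose, with a median log2 fold change of -1.01. After Spry4, the largest falls were those of Myc and Etv4. Myc, the growth-control transcription factor, stood at 48.2, 46.6 and 55.6 CPM in the control samples and 11.2, 6.61 and 13.2 CPM in the PhenDC3 samples (log2 fold change -2.27 ± 0.23, adjusted p = 1.9e-04). Etv4, an ETS factor, fell from 124, 156 and 109.8 to 29.9, 27.9 and 25.8 CPM (log2 fold change -2.22 ± 0.15, adjusted p = 5.2e-05). Fgf4, the ligand that ES cells themselves secrete, rose from 247, 225 and 208 to 373, 389.8 and 348 CPM (log2 fold change 0.71 ± 0.11, adjusted p = 0.0017), and Fgfr1, its receptor, from 55.5, 50.7 and 59.7 to 97.3, 93.3 and 86.7 CPM (log2 fold change 0.74 ± 0.11, adjusted p = 0.0012). In all 5 genes the control and PhenDC3 samples did not overlap.

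**Figure D3:**
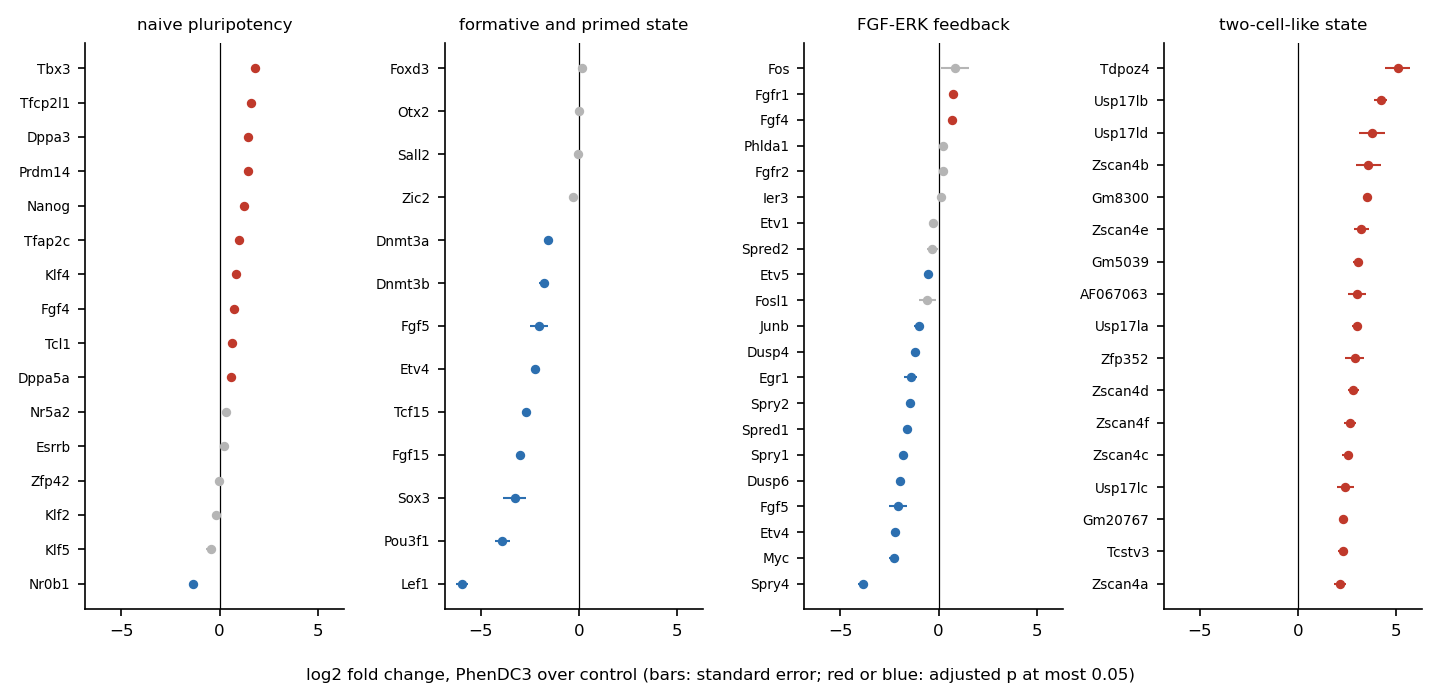
log2 fold change of PhenDC3 over control, with its standard error, for every tested gene of 4 lists: naive pluripotency, formative and primed state, FGF-ERK feedback and 2-cell-like state. Red and blue points passed the test and grey points did not; 10 of 16 naive genes and the 17 tested 2-cell-like genes lie to the right in red, and 9 of 13 formative genes and 12 of 21 FGF-ERK genes lie to the left in blue.

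Other signalling lists moved in both directions. Of 16 LIF-STAT3 genes, 5 rose and 6 fell. Lif itself rose from 4.99, 5.56 and 5.79 to 17.2, 15.6 and 18.7 CPM (log2 fold change 1.66 ± 0.15, adjusted p = 1.2e-04) and Jak2, the kinase, from 5.35, 4.92 and 5.62 to 13.4, 12.7 and 11.5 CPM, while Socs2, a feedback inhibitor, fell from 88.3, 88.5 and 82.1 to 42.7, 43.9 and 44.95 CPM. Of 17 genes on the Wnt list, 6 fell and 3 rose. Axin2, a direct target and inhibitor of the pathway, fell from 10.8, 9.12 and 16.4 to 4.995, 3.56 and 4.47 CPM (log2 fold change -1.48 ± 0.24, adjusted p = 0.002), and Sfrp1, a secreted Wnt antagonist, rose from 76.8, 54.9 and 69.7 to 149, 104 and 182 CPM (log2 fold change 1.11 ± 0.21, adjusted p = 0.0035). The Nodal list had 7 rises and 8 falls among 19 genes. Lefty1, a secreted Nodal inhibitor and target, fell from 43.8, 49.6 and 45.2 to 5.48, 4.27 and 8.97 CPM (log2 fold change -2.88 ± 0.24, adjusted p = 9.4e-05), and Fst, the activin-binding protein follistatin, rose from 2.53, 2.92 and 2.03 to 10.1, 15.9 and 16.4 CPM (log2 fold change 2.50 ± 0.24, adjusted p = 1.6e-04). On the BMP list, with 7 rises and 3 falls among 17 genes, Bmp4 fell from 60.2, 68.5 and 49.2 to 8.01, 5.56 and 10.8 CPM and its target Id1 from 16.6, 26.7 and 27.8 to 2.43, 3.51 and 3.74 CPM (-2.86 and -2.88 on the log2 scale), and the antagonist Nog rose from 0.326, 0.274 and 0.303 to 1.01, 1.21 and 1.38 CPM. Nog passed the count filter through PhenDC3 samples alone, so that a difference followed from the filter. The Notch list, with 3 rises and 2 falls among 16 genes, and the Hedgehog list, with 1 rise and 2 falls among 12, stayed near the median of all genes (-0.04 and 0.01), and these 2 medians and that of the Nodal list (-0.10) changed sign between scalings. Hhip, which sequesters Hedgehog ligands, rose from 0.868, 0.958 and 1.38 to 8.05, 4.93 and 8.17 CPM (log2 fold change 2.72 ± 0.29, adjusted p = 2.3e-04).

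Genes of the 2-cell-like state were higher with PhenDC3 in 17 of 17 tested, of 19 on the list. For 5 of these (AF067063, Tdpoz4, Usp17ld, Zscan4b and Zscan4e) the count filter was passed through PhenDC3 samples alone, so that a difference followed from the filter, and the other 12 rose as well. The summed level of the 17 was 16.1, 15.96 and 10.4 CPM in the control samples and 115, 85.0 and 99.7 CPM in the PhenDC3 samples. This sum includes the 5 genes above, so part of the difference followed from the filter, and the other 12 were not summed alone. Usp17lb, a member of a multicopy deubiquitinase family, stood at 0.434, 0.547 and 0.216 CPM in the control samples and 8.499, 6.07 and 7.59 CPM in the PhenDC3 samples (log2 fold change 4.20 ± 0.31, adjusted p = 6.8e-05). Tdpoz4, of the TRAF-domain POZ family, had 3 counts over the controls and rose from 0.108, 0 and 0 to 1.7, 1.38 and 1.49 CPM, a ratio of 37.1 with a 95% counting interval of 12.4 to 183. Usp17ld likewise had 3 counts against 51, a ratio of 15.4 with an interval of 4.98 to 77.1. Zscan4c, a telomere-associated zinc finger gene that gives the state its usual reporter, rose from 1.66, 1.505 and 0.865 to 9.85, 5.77 and 7.698 CPM (log2 fold change 2.52 ± 0.30, adjusted p = 3.9e-04). The Zscan4 and Usp17l genes are near-identical copies, so these counts may be split between copies. The sum over the list depends less on that split but carries the limit of the filter given above. In bulk samples a larger share of cells in such a state and more RNA per cell cannot be told apart.

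Most of the lineage markers that passed the test were higher. Of 10 endoderm markers tested, 5 rose and none fell, among them Foxa2, from 1.27, 1.09 and 1.82 to 3.43, 3.64 and 4.29 CPM (log2 fold change 1.44 ± 0.25, adjusted p = 0.0027), and the list had 3 rises without PhenDC3 replicate 1. Gata4 and Sox17, factors of primitive endoderm, rose from 13.7, 11.9 and 7.78 to 27.5, 20.3 and 19.5 CPM and from 3.47, 4.65 and 2.77 to 7.29, 8.11 and 6.1 CPM. Of 9 trophectoderm markers, 6 rose. Gata3, a GATA factor of trophectoderm, rose from 0.398, 0.958 and 0.303 to 5.07, 5.98 and 5.23 CPM (log2 fold change 3.31 ± 0.36, adjusted p = 2.6e-04), and Gata2 from 0.904, 1.32 and 1.17 to 4.61, 4.68 and 5.08 CPM, whereas Cdx2, the defining factor of that lineage, stayed at or below 0.46 CPM in all 6 samples. On the mesoderm list 1 of 8 genes rose, Gsc, from 0.0362, 0.0912 and 0.303 to 1.46, 1.297 and 0.617 CPM, and T, the defining brachyury gene, did not exceed 0.47 CPM. Gsc passed the count filter through PhenDC3 samples alone, so that a difference followed from the filter, and none of the other 7 was called. The ectoderm list had 3 rises, Krt18, Nes and Krt8, and 1 fall, Pax6, from 7.05, 8.89 and 5.45 to 1.67, 1.09 and 3.01 CPM (log2 fold change -1.88 ± 0.35, adjusted p = 0.0035). Krt18 and Krt8 stand on the keratin list as well. In a shorter set of 4 ectoderm markers without keratins (Pax6, Sox1, Nes and Tubb3) 1 rose and 1 fell. Of 39 Hox genes, the positional homeobox factors, 9 were tested, and 7 of these rose and none fell. Hoxc4, Hoxc10 and Hoxc12 passed the count filter through PhenDC3 samples alone, so that a difference followed from the filter, and 4 of the other 6 rose. Hoxc13 had the highest level of these, from 1.74, 1.09 and 1.25 to 9.57, 9.03 and 7.41 CPM (log2 fold change 2.65 ± 0.23, adjusted p = 1.1e-04). The largest Hox ratio was that of Hoxc10, from 5 to 53 counts per group, a ratio of 9.6 with an interval of 3.87 to 30.8.

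Targets of p53 rose more often than not. Of 24 tested, 14 rose and 1 fell, with a median log2 fold change of 0.57. Trp53inp1, a p53-induced nuclear protein, stood at 204, 171 and 169 CPM in the control samples and 801, 733 and 854 CPM in the PhenDC3 samples (log2 fold change 2.14 ± 0.13, adjusted p = 4.8e-05). Btg2, an antiproliferative gene, rose from 48.3, 36.7 and 52.5 to 158, 147 and 171 CPM (log2 fold change 1.79 ± 0.15, adjusted p = 9.1e-05), and Plk2, a polo-like kinase, from 23.1, 25.6 and 31.3 to 78.3, 94.9 and 73.96 CPM (log2 fold change 1.63 ± 0.15, adjusted p = 1.4e-04). The fall was that of Pmaip1, the BH3-only gene Noxa, which lost its call under 6 alternatives. On the list of G1/S regulators, with 3 rises and 7 falls among 22 genes, the 3 rises were those of inhibitors of the cell cycle, while another, Cdkn1c, fell (-0.92 on the log2 scale). Rb1 rose from 11.6, 10.9 and 9.77 to 30.2, 29.8 and 25.3 CPM, Cdkn1b, the CDK inhibitor p27, from 29.5, 24.3 and 28.3 to 69.4, 59.1 and 75.1 CPM and Cdkn1a, the CDK inhibitor p21, from 30.8, 37.2 and 37.9 to 78.05, 83.4 and 88.4 CPM (1.40, 1.31 and 1.24 on the log2 scale). Ccne1, which encodes cyclin E1, fell from 269.6, 272 and 267 to 103, 87.96 and 91.3 CPM (log2 fold change -1.52 ± 0.11, adjusted p = 6.6e-05), Cdk6 from 9.48, 10.03 and 15.2 to 3.33, 0.878 and 2.87 CPM and E2f2 from 43.5, 46.7 and 31.4 to 14.01, 11.7 and 15.6 CPM. This list had 4 falls without PhenDC3 replicate 1.

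Replication and checkpoint genes changed little in size. Of 46 replication factors, 17 fell and 1 rose, with a median log2 fold change of -0.27 and the largest fall at -0.75. That is 37.0% lower and 2.17% higher, against 18.7% and 18.0% of all genes tested. With scaling by library size alone 9 fell and 1 rose. Cdt1, the licensing factor, fell from 114, 182 and 157 to 90.6, 94.4 and 84.96 CPM (log2 fold change -0.75 ± 0.16, adjusted p = 0.0075), Rfc5, a clamp-loader subunit, from 201, 234 and 202 to 131, 131 and 118 CPM and Pold1, the catalytic subunit of polymerase delta, from 122, 171 and 185 to 102, 93.2 and 104 CPM. Ticrr, needed for origin firing, rose from 89.9, 97.8 and 115 to 199.7, 198 and 183 CPM (log2 fold change 0.94 ± 0.12, adjusted p = 6.5e-04). The falls numbered 10 without PhenDC3 replicate 1 and 10 without PhenDC3 replicate 3. Of 38 checkpoint and recombination genes, 6 fell and 2 rose (2 fell without PhenDC3 replicate 1), a smaller share than the 36.6% of all genes tested, and their median of -0.15 changed sign with scaling by library size alone. Chek1, the S-phase checkpoint kinase, stood at 95.4, 91.3 and 88.1 CPM in the control samples and 78.8, 68.1 and 85.4 CPM in the PhenDC3 samples and did not pass the test (log2 fold change -0.24 ± 0.12, adjusted p = 0.13). The groups did not overlap, and the difference was 1.18-fold. Of 24 G2/M genes 3 passed the test. Cdc20, the activator of the anaphase-promoting complex, fell, and the kinetochore genes Cenpf and Cenpe rose (-0.47, 0.58 and 0.32 on the log2 scale).

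Genes whose products bind or unwind G4 structures and genes known for G4-forming promoters moved in both directions. Of 30 G4 helicases and binding proteins 8 passed the test, 26.7% against 36.6% of all genes tested, and 7 of these fell and 1 rose (23.3% lower against 18.7%). Slirp fell from 96.5, 99.4 and 90.02 to 55.9, 61.6 and 54.1 CPM, Cnbp, a zinc-knuckle protein, from 704, 829 and 627 to 452, 512 and 431 CPM and Maz, a zinc finger factor that binds G-rich promoters, from 178, 241 and 213 to 142, 141 and 135 CPM, and Rev1, the translesion polymerase, rose from 63.9, 72.7 and 69.7 to 119, 162 and 112 CPM (log2 fold change 0.93 ± 0.15, adjusted p = 0.0018). The median of this list (-0.11) changed sign with scaling by library size alone. Of 18 oncogenes and related genes listed for studies of G4 in their promoters, 4 rose and 4 fell, 22.2% each against 18.0% and 18.7% of all genes tested. Myc, Myb and Ret were among the falls (log2 fold changes -2.27, -1.95 and -1.16), and Rb1, Kit and Tert, the telomerase subunit, among the rises (1.40, 1.18 and 0.66). The search for promoter motifs described below found one for Myc, Myb, Rb1 and Kit but none for Ret and Tert. On the telomere list, 4 of 18 genes rose, led by Zscan4c, and 3 fell, Nop10, Nhp2 and Gar1, all of them components of the H/ACA complex. The shares, 22.2% higher and 16.7% lower against 18.0% and 18.7% of all genes tested, were near the background. The median of the telomere list (-0.04) changed sign with scaling by library size alone.

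Most genes of sterol synthesis and its regulation were lower with PhenDC3. Of 24 genes, 18 fell and none rose (15 with scaling by library size alone), with a median log2 fold change of -0.81, and all 24 had a log2 fold change below 0. Of these falls 1 passed the count filter through control samples alone. Dhcr7, which makes cholesterol from its last precursor, stood at 67.2, 54.5 and 63.5 CPM in the control samples and 23.1, 18.8 and 20.6 CPM in the PhenDC3 samples (log2 fold change -1.57 ± 0.13, adjusted p = 9.4e-05). Cyp51, the lanosterol demethylase, fell from 92.9, 74.97 and 94.9 to 33.2, 36.05 and 37.1 CPM (log2 fold change -1.30 ± 0.12, adjusted p = 1.6e-04). Of 16 genes of fatty acid synthesis, 6 fell, led by Scd2, the stearoyl-CoA desaturase, from 665, 506 and 769.6 to 206, 125 and 206 CPM (log2 fold change -1.85 ± 0.22, adjusted p = 4.4e-04), and Acaca, acetyl-CoA carboxylase, from 112, 94.4 and 141 to 50.6, 36.3 and 48.6 CPM, and 2 rose. Of 18 genes of mitochondrial beta-oxidation, 5 rose and 1 fell, 33.3% called against 36.6% of all genes tested and 27.8% higher against 18.0%. The median of this list (-0.06) changed sign with scaling by library size alone (0.09). Slc25a20, the carnitine-acylcarnitine carrier, rose from 66.7, 60.3 and 51.1 to 178, 209 and 174 CPM (log2 fold change 1.66 ± 0.14, adjusted p = 8.7e-05) and Cpt1c from 37.8, 40.95 and 32.3 to 91.6, 95.5 and 83.3 CPM.

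Glycolysis gave 10 falls and 4 rises among 19 genes, with a median of -0.51. Ldha, lactate dehydrogenase A, stood at 1857, 1802 and 1887 CPM in the control samples and 900.1, 961 and 732 CPM in the PhenDC3 samples (log2 fold change -1.10 ± 0.12, adjusted p = 3.2e-04), and Ldhb, which makes the other subunit of the same enzyme, rose from 208, 204 and 208 to 394, 487 and 369 CPM (log2 fold change 1.01 ± 0.13, adjusted p = 5.7e-04). Aldoc and Pfkl also fell (-1.45 and -0.94 on the log2 scale), and Eno2 and Hk1 rose (0.93 and 0.86). On the hypoxia list, with 5 rises and 4 falls among 15 genes (3 rises without PhenDC3 replicate 1 or 3), Pdk1, the kinase that inhibits pyruvate dehydrogenase, fell from 264, 250.8 and 274 to 48.5, 51.9 and 58.5 CPM (log2 fold change -2.31 ± 0.12, adjusted p = 2.5e-05). Of 23 amino acid transporters, 8 fell and 5 rose. After Slc7a7, Slc1a3, a glutamate transporter, fell from 27.8, 30.4 and 27.1 to 5.83, 6.73 and 8.097 CPM (log2 fold change -2.04 ± 0.15, adjusted p = 6.8e-05), and Slc1a1, a transporter of the same family, rose from 5.75, 5.38 and 4.37 to 22.6, 19.99 and 20.2 CPM (log2 fold change 2.02 ± 0.15, adjusted p = 7.2e-05). On the ATF4 list, with 9 falls and 4 rises among 23 genes, Phgdh, the first enzyme of serine synthesis, fell from 160.0, 178 and 167 to 56.1, 54.5 and 48.3 CPM (log2 fold change -1.67 ± 0.11, adjusted p = 5.2e-05), while Atf3, a stress-induced factor, rose from 1.92, 3.47 and 1.69 to 8.57, 11.4 and 8.42 CPM (log2 fold change 2.01 ± 0.28, adjusted p = 9.0e-04). Bhmt was joined by Dmgdh and Bhmt2, the neighbouring steps and copy of betaine metabolism, among 6 rises and 6 falls on a list of 19, with Dmgdh moving from 0.47, 0.274 and 0.908 to 5.45, 4.64 and 3.05 CPM. Of the 6 rises 2, Bhmt and Chdh, passed the count filter through PhenDC3 samples alone. None of the 20 genes of the unfolded protein response of the endoplasmic reticulum passed the test by edgeR. The most abundant, Canx, which encodes the chaperone calnexin, stood at 1157, 772 and 819.6 CPM in the control samples and 989, 886 and 1072 CPM in the PhenDC3 samples (log2 fold change 0.10 ± 0.16, adjusted p = 0.66). On the list of betaine and methionine metabolism the falls numbered 2, and on that of amino acid transporters the rises numbered 3, without PhenDC3 replicate 1.

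On the lists of translation and of mitochondrial energy metabolism the genes that passed the test were nearly all lower, by small amounts, while most cytosolic ribosomal genes did not pass it. Of 77 mitochondrial ribosomal protein genes, 50 fell and none rose, with a median log2 fold change of -0.44. Of 78 genes of oxidative phosphorylation, 38 fell and none rose, with a median of -0.38. Of 84 cytosolic ribosomal protein genes, 26 fell and none rose, with a median of -0.26. Mrpl52, of the large mitochondrial subunit, fell from 20.3, 38.5 and 30.8 to 12.9, 12.1 and 12.1 CPM (log2 fold change -1.27 ± 0.21, adjusted p = 0.0021), and Rpl36, of the large cytosolic subunit, from 716, 1051 and 912 to 494, 561 and 517 CPM (log2 fold change -0.77 ± 0.15, adjusted p = 0.0042). Uqcrq, of complex III, fell as well (log2 fold change -0.98 ± 0.15, adjusted p = 0.0013). In each of these 3 genes control replicate 2 had the highest level. Of 21 aminoacyl-tRNA synthetase genes 12 fell and none rose, led by Vars (-1.06 ± 0.14). Of 30 translation factors 11 fell, led by Eif5a (-0.93 ± 0.12), and 1, Eif2s2, rose. Of 39 proteasome genes 19 fell and none rose, and of 30 genes of rRNA processing and RNA polymerase I 12 fell and 1 rose. The 4 with the largest falls in the proteasome list, Psmb8, Psmb10, Psmb9 and Psma8, encode inducible or tissue-specific subunits, and Psmb10 went from 29.8, 32.5 and 27.7 to 8.95, 9.66 and 9.11 CPM. Psmb8 passed the count filter through control samples alone. Without PhenDC3 replicate 1 the falls numbered 29 for mitochondrial ribosomal, 16 for oxidative phosphorylation, 5 for cytosolic ribosomal, 10 for proteasome and 7 for translation factor genes, and without PhenDC3 replicate 2 those of rRNA processing numbered 6. With scaling by library size alone the falls on the first 5 of these lists numbered 24, 14, 4, 9 and 6.

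The ribosomal, oxidative phosphorylation and proteasome genes have short transcripts, with median exon lengths of 846.5 bp for cytosolic and 1473 bp for mitochondrial ribosomal, 1028 bp for oxidative phosphorylation and 1456 bp for proteasome genes, and transcript length moved with the response. The protein-coding genes tested were cut into quartiles of exon length, the shortest up to 2277 bp and the longest from 5890 bp. In the shortest quartile 10.5% of genes rose and 30.9% fell, and in the longest 27.3% rose and 9.56% fell, with median log2 fold changes of -0.23 and 0.22. The relation could be seen in single samples. In the shortest quartile the median deviation of a gene from its own mean was 0.10, 0.22 and 0.01 on the log2 scale in the controls and -0.10, -0.01 and -0.20 with PhenDC3. In the longest quartile it was -0.12, -0.22 and 0.03 in the controls and 0.11, 0.03 and 0.20 with PhenDC3, where control replicate 3 lay above PhenDC3 replicate 2. Control replicate 2 and PhenDC3 replicate 3 lay farthest apart. Read against the median of their own length quartile, the median difference of the cytosolic ribosomal genes was -0.05, of the oxidative phosphorylation genes -0.19, of the proteasome genes -0.13 and of the mitochondrial ribosomal genes -0.30. For the naive, formative and cholesterol lists the same medians were 0.83, -2.01 and -0.75.

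Of 67 replication-dependent histone genes 14 were tested, at low levels, and 13 of these fell. Hist1h1e, Hist1h2bn, Hist1h4a and Hist4h4 passed the count filter through control samples alone, so that a difference followed from the filter, and 9 of the other 10 fell. Histone transcripts lack a poly(A) tail and are mostly lost in poly(A)-selected libraries such as these, and 53 of the 67 genes did not pass the count filter. The summed level of the 14 was 35.4, 14.7 and 24.7 CPM in the controls and 4.48, 4.10 and 8.97 CPM with PhenDC3. Hist1h1e, a linker histone, fell from 1.27, 0.866 and 1.77 to 0.0694, 0.0837 and 0.254 CPM (log2 fold change -3.21 ± 0.52, adjusted p = 0.0019). The order of the samples was the same as for Rn45s within each group. Control replicate 1 was highest and control replicate 2 lowest in both, and PhenDC3 replicate 3 was highest and PhenDC3 replicate 2 lowest in both. The part in this result of RNA without a poly(A) tail carried into the libraries was not tested, and 7 falls were called without PhenDC3 replicate 1 and 7 without control replicate 1.

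Interferon-stimulated genes fell more often than they rose. Of 25 interferon response genes 11 fell and 4 rose, with 2 rises without PhenDC3 replicate 1. Gbp2, a guanylate-binding protein, fell from 4.23, 3.37 and 6.44 to 0.347, 0.376 and 2.11 CPM (log2 fold change -2.29 ± 0.59, adjusted p = 0.016) and Oasl2, of the oligoadenylate synthetase family, from 1.19, 1.596 and 2.59 to 0.312, 0.251 and 0.472 CPM (log2 fold change -2.35 ± 0.41, adjusted p = 0.0027), and Ly6a was the largest rise. Psmb8, the immunoproteasome subunit, had 86 counts over the controls and 6 over the PhenDC3 samples, a 15.8-fold ratio with an interval of 6.98 to 44.3. Its count filter was passed through control samples alone, so that a difference followed from the filter. Of 14 MHC and complement genes 4 fell, led by Tap2, H2-M3 and H2-K1, and 3 rose, led by Cd55, an inhibitor of complement, from 8.54, 9.48 and 6.66 to 18.5, 19.7 and 19.5 CPM (log2 fold change 1.22 ± 0.16, adjusted p = 6.1e-04).

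Chromatin regulators of the Polycomb and Trithorax groups had 12 rises and 4 falls among 30 genes. Bmi1, a subunit of Polycomb repressive complex 1, stood at 5.68, 6.07 and 3.07 CPM in the control samples and 23.5, 22.4 and 20.1 CPM in the PhenDC3 samples (log2 fold change 2.15 ± 0.23, adjusted p = 2.6e-04). Aebp2, of Polycomb repressive complex 2, rose from 114, 111 and 96.8 to 256, 291 and 245 CPM (log2 fold change 1.30 ± 0.12, adjusted p = 1.4e-04), and Dpy30, a subunit of the H3K4 methyltransferase complexes, fell from 244, 245 and 236 to 133, 128 and 136 CPM. The rises numbered 7 without PhenDC3 replicate 1. Of 28 tested imprinted genes 7 fell and 4 rose, 39.3% called against 36.6% of all genes tested, which is near the background. Nnat fell from 6.44, 6.75 and 6.96 to 0.729, 0.335 and 1.63 CPM and Phlda2 from 48.7, 59.5 and 57.5 to 8.19, 9.08 and 13.7 CPM, and Plagl1, a zinc finger gene, rose from 0.651, 1.05 and 0.649 to 5.79, 5.27 and 6.21 CPM (log2 fold change 2.88 ± 0.25, adjusted p = 1.1e-04) and Igf2 from 21.96, 25.9 and 11.3 to 70.7, 71.2 and 125 CPM. Of 25 tested genes on a list of germline genes known as targets of silencing by DNA methylation, 6 rose and 2 fell. That is 32.0% called against 36.6% of all genes tested and 24.0% higher against 18.0%, which is near the background. The median level on this list was 10.4 CPM over the 6 samples, so many of its genes were not silent here. DNA methylation was not measured. Dazl, an RNA-binding protein of germ cells, rose from 16.9, 13.3 and 11.98 to 38.6, 32.8 and 28.9 CPM (log2 fold change 1.25 ± 0.17, adjusted p = 7.4e-04), and Mael, of the piRNA pathway, fell from 24.1, 29.9 and 19.5 to 7.701, 8.32 and 7.81 CPM (log2 fold change -1.62 ± 0.17, adjusted p = 2.4e-04).

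Matrix, autophagy and lysosome genes rose more often than they fell. The shares called were 57.1%, 34.5% and 46.9%, against 36.6% of all genes tested. For autophagy the share was thus near the background, with 27.6% higher against 18.0% and a median log2 fold change of 0.09. Of 28 matrix and integrin genes 11 rose and 5 fell. Col4a1, a collagen of basement membranes, stood at 218, 183 and 257 CPM in the control samples and 710.1, 555 and 807 CPM in the PhenDC3 samples (log2 fold change 1.66 ± 0.17, adjusted p = 2.3e-04), and its partner Col4a2 rose from 101, 89.3 and 120.3 to 316, 219.7 and 379 CPM. Timp2, a metalloproteinase inhibitor, rose from 1.95, 2.098 and 2.46 to 5.65, 5.86 and 11.9 CPM, and Itga1 fell from 2.31, 1.82 and 2.94 to 0.659, 0.962 and 1.45 CPM, with 3 falls on the list without PhenDC3 replicate 1. Of 29 autophagy genes 8 rose and 2 fell, led by Ulk1, the kinase that starts autophagosome formation, from 176, 213 and 282 to 554, 521 and 520.4 CPM (log2 fold change 1.25 ± 0.17, adjusted p = 7.3e-04), and Gabarapl2, of the ATG8 family, from 186, 181 and 124 to 436, 399 and 322 CPM (log2 fold change 1.24 ± 0.18, adjusted p = 0.0011). Of 32 lysosome genes 10 rose and 5 fell, with Hexa, a hexosaminidase subunit, rising from 50.7, 50.98 and 34.6 to 82.5, 100.4 and 72.8 CPM and Gusb, beta-glucuronidase, falling from 23.1, 20.1 and 18.6 to 9.57, 8.16 and 9.44 CPM. The lysosome rises numbered 4 without PhenDC3 replicate 2, and its falls 1 without PhenDC3 replicate 1 and 1 without control replicate 1. On the list of cytoskeletal and YAP target genes, with 6 rises and 6 falls among 26, Fhl2 rose from 0.543, 0.638 and 0.908 to 1.91, 2.01 and 4.68 CPM and Vim, vimentin, fell from 146, 161 and 188 to 62.96, 56.5 and 67.9 CPM.

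Among further lists, those of Zfp and Gm genes had more rises than falls, and the others here had few calls or calls in both directions. Heat shock genes had 4 rises and 3 falls among 22 (2 and 1 without PhenDC3 replicate 1), with Hspb8, a small chaperone, rising from 23.6, 23.5 and 26.4 to 76.04, 102 and 64.2 CPM (log2 fold change 1.72 ± 0.17, adjusted p = 1.8e-04). NRF2 and oxidative stress genes had 5 rises and 8 falls among 25 (3 and 5 without PhenDC3 replicate 1, and 3 rises without PhenDC3 replicate 2), and genes of the xenobiotic response 5 rises and 4 falls among 15 (2 falls without PhenDC3 replicate 1). Cyp1a1, the classical aryl hydrocarbon receptor target, stood at 0, 0.365 and 0.216 CPM in the control samples and 0.624, 0.753 and 1.34 CPM in the PhenDC3 samples, and its call (log2 fold change 2.28 ± 0.72, adjusted p = 0.034) was lost on leaving out PhenDC3 replicate 1 or 3 or control replicate 1 or 3. Cyp1a1 passed the count filter through PhenDC3 samples alone, so that a difference followed from the filter. The BCL2 family had 3 rises and 5 falls among 17, with Bik, a BH3-only gene, rising from 2.86, 3.37 and 1.38 to 9.16, 17.1 and 8.28 CPM (log2 fold change 2.18 ± 0.37, adjusted p = 0.0023). Of 335 Zfp genes 56 rose and 29 fell (34 and 14 without PhenDC3 replicate 1, and 92 and 13 with scaling by library size alone), and of 255 solute carriers 57 rose and 49 fell. The shares called were 25.4% and 41.6%, against 36.6% of all genes tested. Zfp641, which rose, and 5 rises and 2 falls of solute carriers passed the count filter through 1 group alone, so that a difference followed from the filter. Of 241 predicted genes named Gm 52 rose and 24 fell. Of these rises 10 passed the count filter through PhenDC3 samples alone, and of these falls 4 through control samples alone. Of 72 snoRNA genes 3 fell and none rose, Snora78, Snord49b and Snord104, a share of 4.17% against 36.6% of all genes tested. Without PhenDC3 replicate 1 or 3 or control replicate 1 the snoRNA falls numbered 1.

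Of 20 enzymes of peroxisomal and bile acid lipid metabolism 4 rose, led by Baat, and 2 fell, led by Slc27a2, a very long-chain acyl-CoA synthetase, from 23.3, 23.4 and 24.4 to 4.41, 3.05 and 3.67 CPM (log2 fold change -2.67 ± 0.16, adjusted p = 5.2e-05). Baat passed the count filter through PhenDC3 samples alone, so that a difference followed from the filter. The share of this list called, 30.0% against 36.6% of all genes tested, was near the background. Its rises numbered 2 without PhenDC3 replicate 1 or 2 and 7 with scaling by library size alone. Of 31 enzymes that build cell-surface glycans 7 rose (13 with scaling by library size alone) and 3 fell, 32.3% called against 36.6% of all genes tested. Hs6st1, which sulfates heparan sulfate, rose from 70.3, 72.6 and 82.3 to 196, 209 and 162 CPM (log2 fold change 1.33 ± 0.13, adjusted p = 1.7e-04), and B3gnt7, which extends keratan sulfate chains, fell from 114, 126 and 109.7 to 28.03, 24.2 and 27.96 CPM (log2 fold change -2.12 ± 0.12, adjusted p = 4.0e-05). Of 46 splicing factors 17 fell and 4 rose (9 fell without PhenDC3 replicate 1, 2 rose without PhenDC3 replicate 3, and 8 fell with scaling by library size alone), with the largest fall in Snrpf, a core protein of the spliceosomal snRNPs (-1.03 ± 0.21). Of 41 genes of RNA polymerase II and its initiation factors 12 fell and none rose, and of 25 nuclear pore and transport genes 6 fell and none rose (3 and 1 with scaling by library size alone), led by Ran, the transport GTPase (-0.69 ± 0.12). On the Mediator list 3 of 30 genes rose, led by Med12l from 2.496, 3.47 and 3.59 to 11.7, 14.8 and 11.4 CPM, and 5 fell (2 fell without PhenDC3 replicate 2 or 3 or control replicate 2, and with scaling by library size alone 6 rose and 2 fell). The share called was 26.7%, against 36.6% of all genes tested. Of 14 genes of nonsense-mediated decay 4 rose, led by Upf2 (0.76 ± 0.12), and 1 fell. Among gene families named by symbol, collagens had 8 rises and 4 falls among 27, and keratins 5 and 1 among 10 (3 rises without PhenDC3 replicate 3 or control replicate 1). Kinesins had 7 and 4 among 38, with 13 rises without control replicate 3, 2 falls without PhenDC3 replicate 1 or 3, and 16 rises and 3 falls with scaling by library size alone. Tmem genes had 39 and 41 among 185, with 23 rises without PhenDC3 replicate 2, 27 falls without PhenDC3 replicate 1, and 54 rises and 31 falls with scaling by library size alone. Rik clones had 87 and 86 among 593, with 51 falls without PhenDC3 replicate 1, and 119 rises and 56 falls with scaling by library size alone. Cytochromes P450 had 4 and 3 among 23, and 2 and 0 without PhenDC3 replicate 1. Rhox genes, glutathione S-transferases, protocadherins and microRNA genes, with 8, 17, 14 and 22 tested, had at most 3 calls in either direction. Of the microRNA calls 1 rise and 1 fall passed the count filter through 1 group alone. Only 2 of the 1102 listed olfactory receptor genes were tested, and 1 fell. The 6 fibroblast marker genes that were tested on the longer list had 1 rise and 1 fall.

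**Figure D4:**
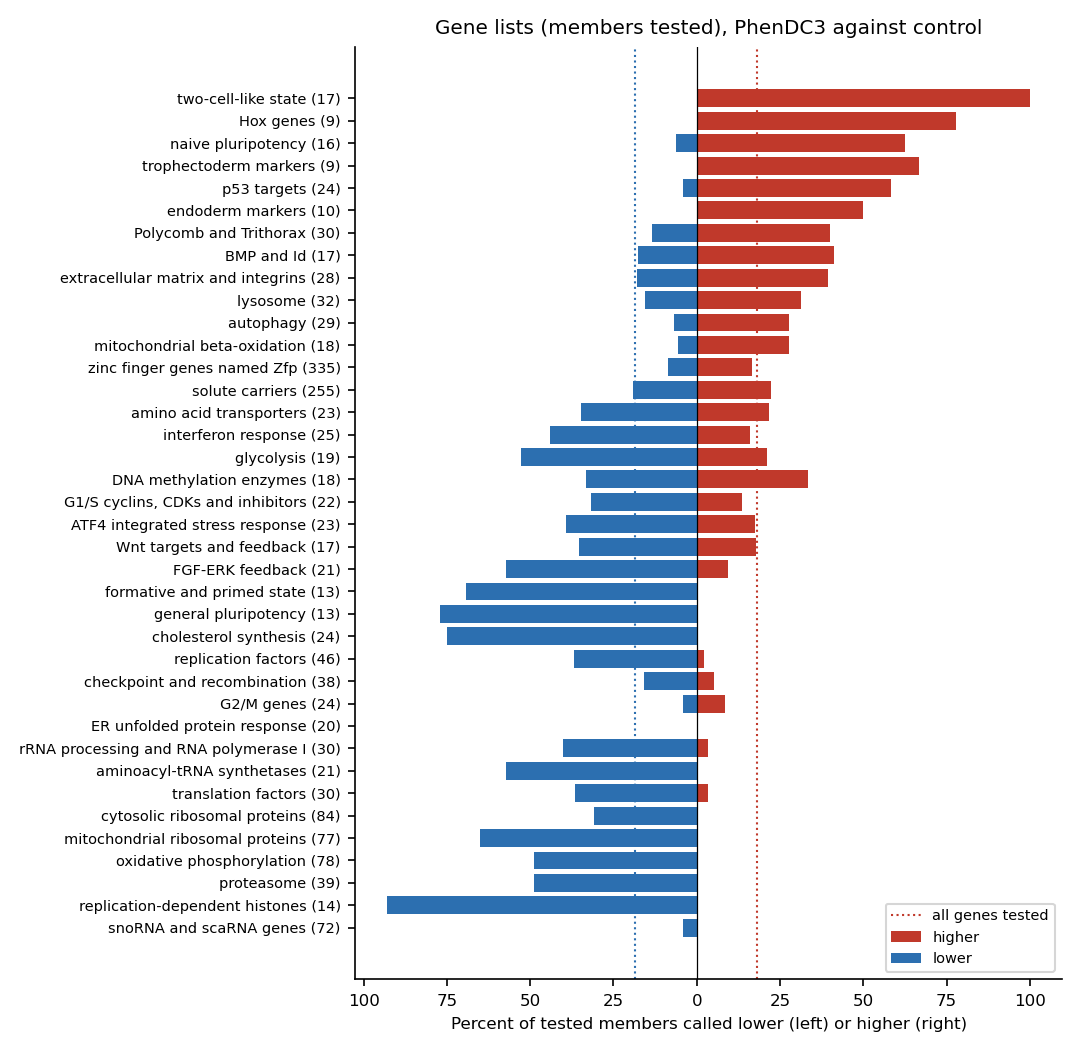
For 38 gene lists, the share of tested members called higher (red, to the right) and lower (blue, to the left), in percent, with the number tested in brackets and dotted lines at the shares over all genes tested, 18.0% higher and 18.7% lower. The 2-cell-like, Hox, trophectoderm, naive and p53 lists reach farthest to the right, and the histone, general pluripotency, cholesterol, formative and mitochondrial ribosomal lists farthest to the left. Of these calls 5 on the 2-cell-like, 3 on the Hox, 4 on the histone and 1 on the cholesterol list passed the count filter through 1 group alone. For those a difference followed from the filter.

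By gene class, 18.3% of the 13347 protein-coding genes tested rose and 19.1% fell, against 12.4% and 12.2% of 428 lncRNAs and 16.8% and 9.74% of 113 transcribed pseudogenes. Chromosomes differed little. The share called higher ran from 13.3% on chromosome 17 to 21.4% on chromosome 1, and the share called lower from 14.9% on chromosome 12 to 22.5% on chromosome 17, leaving out chromosome Y with 5 genes tested and no call. The 514 genes tested on chromosome X had 20.6% higher and 15.6% lower. Genomic span showed the same order as exon length, with 12.1% higher and 27.0% lower in the shortest quartile, and 26.9% higher and 12.02% lower in the longest. By level per length, as RPKM (CPM per kilobase of exon), the lowest quartile had 22.4% higher and 13.3% lower and the highest quartile 10.2% higher and 29.3% lower. Across the 13347 protein-coding genes, which share the same 6 libraries, Spearman's rho with the log2 fold change was 0.27 for exon length, 0.21 for genomic span, 0.07 for promoter GC content, -0.03 for G4 motifs per kilobase of the gene and -0.13 for mean CPM.

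Since the ligand binds G4, promoters were searched for a G4 motif, defined as 4 runs of at least 3 G joined by spacers of 1 to 7 bases of any kind, on either strand, in the window from 250 bases before to 50 bases after the 5′-most curated RefSeq transcript start. Of the 13347 protein-coding genes tested, 3864 held the motif, and over all protein-coding genes of the table with a window 23.2% did. The 250 bases before the start are shown for 2 genes that rose and 2 that fell and that hold the motif, to show that it stands in promoters of both kinds. The sequences are from RefSeq on GRCm38.p6, all on the plus strand, 5′ to 3′, and capitals mark the motif, as G runs on the coding strand or as C runs where it lies on the template strand. Ebf4 (chr2:130295689-130295938, before a curated start inside the annotated gene) and Tcf7l2 (chr19:55741560-55741809) rose, and Lef1 (chr3:131110047-131110296) and Pkm (chr9:59656326-59656575) fell.
Ebf4: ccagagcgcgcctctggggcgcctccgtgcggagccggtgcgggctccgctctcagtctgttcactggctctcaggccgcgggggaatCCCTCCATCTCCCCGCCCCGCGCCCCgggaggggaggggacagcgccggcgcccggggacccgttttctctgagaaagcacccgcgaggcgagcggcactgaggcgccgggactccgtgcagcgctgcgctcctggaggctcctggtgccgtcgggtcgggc
Tcf7l2: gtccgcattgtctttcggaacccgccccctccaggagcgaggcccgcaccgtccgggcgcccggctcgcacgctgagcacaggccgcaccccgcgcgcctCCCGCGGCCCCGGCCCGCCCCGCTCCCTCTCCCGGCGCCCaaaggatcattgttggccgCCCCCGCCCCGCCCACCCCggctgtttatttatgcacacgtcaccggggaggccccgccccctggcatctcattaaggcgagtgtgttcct
Lef1: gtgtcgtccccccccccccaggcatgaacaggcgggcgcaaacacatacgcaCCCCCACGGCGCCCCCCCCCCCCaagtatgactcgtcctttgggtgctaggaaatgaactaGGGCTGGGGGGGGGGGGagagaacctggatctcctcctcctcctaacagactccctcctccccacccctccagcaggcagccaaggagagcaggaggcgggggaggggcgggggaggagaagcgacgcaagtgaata
Pkm: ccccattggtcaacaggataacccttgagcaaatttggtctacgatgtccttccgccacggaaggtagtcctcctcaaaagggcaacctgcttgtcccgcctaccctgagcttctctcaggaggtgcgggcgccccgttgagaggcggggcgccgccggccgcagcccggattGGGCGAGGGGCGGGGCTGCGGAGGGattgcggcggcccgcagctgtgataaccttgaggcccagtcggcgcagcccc

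The motif lay on the template strand in Ebf4 and Tcf7l2, on the coding strand in Pkm and on both strands in Lef1. In Lef1 it rests in part on single long runs of G or C. Levels moved from 0.108, 0.365 and 0.0865 to 1.63, 3.39 and 1.45 CPM for Ebf4 and from 5.75, 6.88 and 6.31 to 11.9, 12.1 and 11.04 CPM for Tcf7l2, a TCF family partner of beta-catenin, against falls from 21.1, 21.2 and 33.5 to 0.555, 0.335 and 0.327 CPM for Lef1 and from 4504, 3596 and 5312 to 2804, 2179 and 2660 CPM for Pkm. A match to the motif is a description of the letters and shows no folded structure.

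Genes with the motif were called higher somewhat more often. Of the 3864 with it 21.8% rose and 17.9% fell, and of the 9483 without it 16.8% rose and 19.5% fell, with median log2 fold changes of 0.06 and -0.01. Put the other way, the motif was held by 34.5% of the protein-coding genes called higher, 27.2% of those called lower and 27.9% of those not called. By strand, 24.5% of the 1796 genes with the motif on the coding strand only rose, and 18.4% of the 1755 with it on the template strand only. Promoters with the motif were richer in GC (median 66.7% against 58.7%) and belonged to genes with longer exons (median 4174 bp against 3496 bp). Within quartiles of exon length, the share called higher was 9.78% with and 10.7% without the motif in the shortest, 19.1% and 14.2% in the next, 22.3% and 18.6% in the third, and 30.8% and 25.3% in the longest. Within quartiles of promoter GC content the share called higher with the motif against without it was 15.9% against 17.6%, 18.4% against 14.6%, 19.3% against 14.8% and 25.4% against 22.4%. The share called lower, from the shortest quartile of exon length to the longest, was 30.4% with against 31.0% without the motif, 22.1% against 21.0%, 16.2% against 13.7% and 8.40% against 10.2%. From the lowest quartile of promoter GC content to the highest it was 26.4% against 20.5%, 21.1% against 21.6%, 19.9% against 18.2% and 14.3% against 15.7%.

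**Figure D5:**
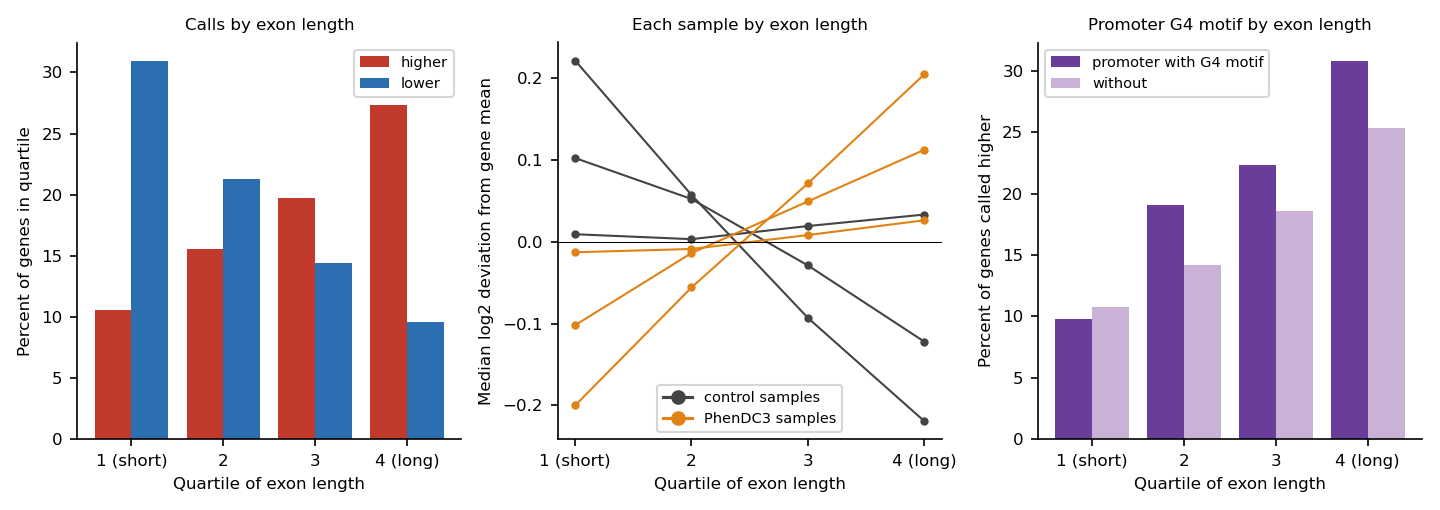
Left, percent of protein-coding genes called higher (red) and lower (blue) in quartiles of exon length; middle, median log2 deviation of each sample from the mean of each gene, grey for control and orange for PhenDC3; right, percent called higher for genes with and without a promoter G4 motif. Calls shift from 30.9% lower in the shortest quartile to 27.3% higher in the longest, and the share called higher is larger with the motif than without it in quartiles 2 to 4.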

How the data were processed

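The deposited RNA-seq file is a table of raw counts per gene. Per the labels and the study's methods, the authors made poly(A)-selected stranded libraries, aligned reads with TopHat 2.1.1 on Bowtie2 2.2.9 and counted with HTSeq 0.6.1p1. The strand setting and annotation of counting are not given in the sources used here, so overlapping and antisense genes cannot be told apart. The authors' normalised values, their DESeq2 comparison and the origin maps were not used.

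From the counts, edgeR 4.0.16 (R 4.3.3) was run with RLE size factors, robust quasi-likelihood dispersion and the 2 groups as the only term, on genes with at least 10 counts in 3 or more samples; CPM uses the same factors. Values after ± are standard errors of log2 fold changes, or SDs of means over 3 samples. Adjusted p at most 0.05 was called. DESeq2 1.42.0, other scalings and filters, a replicate block and leaving out each library were alternatives. Counts were simulated over 13697 genes, with 67 genes changed 1.5-fold, 67 changed 2-fold and 66 changed 4-fold. Of these changes 19.4%, 76.1% and 97.0% were recovered, with 13 false calls. Far fewer genes were changed there than were called here, which makes the adjusted p threshold stricter. These shares therefore do not measure recovery in the real comparison. Depth was 22232014 to 29486502 counts.

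Named genes were the 12 largest rises and 12 largest falls whose groups did not overlap and whose CPM averaged 1 or more, the 5 most abundant called in each direction with at least 1.5-fold change, up to 3 called genes per direction in each of 78 gene lists (the 2 most abundant where none was called), Pou5f1 and Chek1; others (such as Sox2, Fgf5 and Psma8) describe a list and were chosen after their values were seen; 1 of the largest falls is not reported here. Members, lists and rules were chosen with earlier results of these data known, lists share genes, and no test was made over a list. By Entrez number, 23977 of 24079 genes matched RefSeq GRCm38.p6, which gave lengths, promoters and gene types. Counting intervals are exact at 95%.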

Additional observations from a re-analysis of the deposited data

How the results depend on the processing

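The main counts were 5134 for genes changed with PhenDC3, 2519 for genes higher with PhenDC3, 2615 for genes lower with PhenDC3 and 3621 for genes changed at least 1.5-fold with PhenDC3. Leaving out each library in turn gave 3328 to 5364 changed, 1708 to 2671 higher, 1620 to 2693 lower and 2961 to 3783 changed at least 1.5-fold, each lowest without PhenDC3 replicate 1. Scaling by library size alone gave 1692 lower genes. DESeq2 called 2682 higher and 2767 lower, TMM scaling 2451 and 2702, filterByExpr 2518 and 2617, and no count filter 2551 and 2616. No gene called in both the main test and an alternative changed direction. Of 360 named genes that passed the test, 66 lost their call under at least 1 alternative, 30 of them under one that kept all libraries, and none reversed. The median of 15 of 78 lists changed sign between scalings.

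The replicate numbers were not treated as pairs: the correlations of deviations between same-numbered samples were 0.09, 0.54 and 0.40, although each sample correlated best with its own number. Between differently numbered samples they ran from -0.45 to 0.07. The count columns of same-numbered samples also carry consecutive numbers in their names. Whether these samples shared a batch is not stated in the sources used here. The fit with the replicate number as a block called 3802 higher and 3692 lower genes, 7494 genes changed with PhenDC3 in all. There Chek1 passed the test and Igf2, Rhox8 and Rn45s did not. The simulated 1.5-fold changes were mostly missed, but far fewer genes were changed in the simulation than were called here. Genes not called may have changed by this much, and their share was not estimated.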
